A study of Mus musculus with 18 samples.

Results

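Glycolysis and the pentose phosphate pathway were followed in embryonic mouse epidermis through 32 genes, found by symbol among the 20655 rows of a table of read counts over coding sequences. They cover glucose entry, the steps from hexokinase to pyruvate kinase, lactate formation and export, the enzymes that set fructose 2,6-bisphosphate, pyruvate dehydrogenase with 1 of its kinases, and both arms of the pentose phosphate pathway. Of the 32, 31 passed the filter on low counts in both library kinds. The other one, the enolase gene Eno1, was listed at 0 in all 18 libraries. Ribosome footprints and RNA were sequenced from samples described as epidermal basal cells, with 3 libraries of each kind in each of 3 conditions. All embryos received an shRNA by in utero injection at E9.5 and were collected at E18.5, and the tissue was handled with cycloheximide, which holds ribosomes on mRNA. The WT shScram embryos carried a scrambled control shRNA, and were a reporter line with tdTomato and EGFP at the Gt(ROSA)26Sor locus. The HrasG12V shScram embryos were of strain FR-HrasG12V with the same control shRNA, and the HrasG12V shEif2b5 embryos were of strain FR-HrasG12V with an shRNA against Eif2b5. Strain and genotype therefore cannot be told apart, no WT shEif2b5 group was analysed here, and the labels do not give how the HrasG12V allele was switched on. One WT shScram library (footprints, replicate 1) has Rosa26 as its genotype label and was kept with its group. The comparison of HrasG12V shScram with WT shScram is called the HrasG12V comparison, that of HrasG12V shEif2b5 with HrasG12V shScram the shEif2b5 comparison, and that of HrasG12V shEif2b5 with WT shScram the combined comparison.

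Glycolysis splits glucose into pyruvate and yields ATP and NADH without oxygen, and lactate dehydrogenase regenerates NAD+ by reducing pyruvate to lactate, which proton-coupled carriers export. The pentose phosphate pathway leaves glycolysis at glucose 6-phosphate. Its oxidative arm makes NADPH, and its non-oxidative arm interconverts sugars to supply ribose for nucleotides. RAS signalling is known to raise glucose uptake and glycolytic gene expression in many cell types, and MYC and HIF-1 are known to bind promoters of these genes. eIF2B, of which Eif2b5 encodes the catalytic subunit, recharges the initiation factor eIF2 with GTP and so sets the rate of translation initiation.

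RNA libraries held 1771365 to 5505386 counts over coding sequences and footprint libraries 3319175 to 4933298. HrasG12V shScram RNA replicates 1 and 3 and WT shScram RNA replicate 3 were the deepest RNA libraries, with 5214473, 4310239 and 5505386 counts. Eif2b5 RNA, the target of the shRNA, ranged from 158 to 179 CPM (read counts scaled by TMM to a common library size) in WT shScram, 127 to 388 in HrasG12V shScram and 128 to 143 in HrasG12V shEif2b5, and its footprints from 102 to 106, 91.9 to 102 and 78.5 to 95.4 CPM. Neither difference between HrasG12V shEif2b5 and HrasG12V shScram passed the edgeR test (RNA −0.68 on the log2 scale, adjusted p 0.257; footprints −0.16, adjusted p 0.994), so the label and not a measured knockdown defines this group. The value of 388 is that of HrasG12V shScram RNA replicate 2, and without this library the RNA difference was −0.00 (adjusted p 0.993). HrasG12V shEif2b5 footprint replicate 1 stood apart from replicates 2 and 3, with a chi-square per degree of freedom of 20.3 and 21.1 against 5.84 between those 2. Its spinous keratinocyte markers (7 of 7 in the table) summed to 22913 CPM, against 69686 and 68749 CPM in replicates 2 and 3. Over all RNA libraries the 12 basal keratinocyte markers, none of them at 0, summed to 14955 to 19804 CPM in WT shScram, 10228 to 13953 in HrasG12V shScram and 15864 to 17836 in HrasG12V shEif2b5. The 7 melanocyte markers summed to 388 to 563, 598 to 728 and 469 to 584 CPM in the same order, and the 6 hair follicle markers to 1869 to 2781, 1773 to 2061 and 2515 to 3374 CPM. Immune, endothelial, erythroid, skeletal muscle, adipocyte and Merkel cell markers each summed to at most 34.8 CPM in any RNA library. Dermal fibroblast markers (8 of 8 in the table) were higher, at 785 to 2453, 957 to 1566 and 797 to 894 CPM in RNA, as were the granular and cornified layer markers (7 of 8 in the table), at 2507 to 6914, 2270.4 to 6252 and 3287 to 5212 CPM, with overlapping groups. Spinous markers summed to 64947 to 97993 CPM in WT shScram RNA, above the 34092 to 62674 of HrasG12V shScram and the 46118 to 59144 of HrasG12V shEif2b5. In footprints the hair follicle sums were 1348 to 1888, 1767 to 2248 and 2228 to 2351 CPM, the basal sums 10847 to 15528, 12269.9 to 16893 and 16045 to 18071 CPM and the melanocyte sums 1201 to 1413, 1371 to 1624 and 1398 to 1572 CPM. Spinous footprint sums were 21908 to 43526, 31048.5 to 38200 and 22913 to 69686 CPM in the same order. In footprints the hair follicle, basal, melanocyte and spinous sums of WT shScram and HrasG12V shScram overlapped. In RNA some sums differed between these groups and others overlapped. The part of the marker sums in the RNA and footprint differences described here was not tested. In every library of both kinds the spinous sum exceeded the basal sum, so the values cannot be assigned to basal cells alone. In such bulk samples fewer cells of a type and less RNA per cell cannot be told apart. Whether replicate libraries stem from different embryos is not given in the labels, so p-values measure the spread between these libraries, and with 3 libraries in each of 2 groups the smallest two-sided p of an exact permutation test is 0.1.

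Of the 31 measured genes, 4 passed the edgeR quasi-likelihood test in any comparison, all of them in RNA and none in footprints. The threshold for a call was 0.05 after Benjamini-Hochberg adjustment over all genes tested. Gapdh, which encodes the dehydrogenase of glyceraldehyde 3-phosphate, rose 1.47-fold in RNA in the HrasG12V comparison (adjusted p 0.0409). In the shEif2b5 comparison, RNA fell by 0.83 on the log2 scale for the lactate and pyruvate carrier gene Slc16a1, by 0.69 for the ribulose 5-phosphate epimerase gene Rpe and by 0.47 for the phosphoglycerate kinase gene Pgk1. The background was 7.7% of 11096 genes called in RNA in the HrasG12V comparison and 13% in the shEif2b5 comparison, so 1 and 3 of 31 did not exceed the share over all genes. In the combined comparison, 0 of 31 RNAs were called (0 at an unadjusted p under 0.05, 0 by DESeq2 and 0 by limma voom), where the background was 0.324%.

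In footprints, edgeR called 0 of 31 genes in each comparison, where 1.7% of 11448 genes were called in the HrasG12V comparison, 0% in the shEif2b5 comparison and 0.97% in the combined comparison. At an unadjusted p under 0.05 the counts were 12, 0 and 9 of 31, where 14.3%, 4.53% and 14.4% of all genes passed. DESeq2 called 3, 0 and 1 of 31 (260, 1 and 229 of all 11448 genes) and limma voom 0 in each. By sign alone, 24 of 31 footprint levels stood above WT shScram in HrasG12V shScram, with a median log2 difference of 0.14 against −0.01 over all genes, and 24 of 31 in HrasG12V shEif2b5, with a median of 0.17 against −0.01. These 2 comparisons share the WT shScram libraries. All 3 libraries of one group lay above all 3 of the other for 10 genes in HrasG12V shScram, and below for 2, where 20.3% of all genes were separated in either direction. The counts were 6 and 2 in the combined comparison (16.1% of all genes) and 1 and 2 in the shEif2b5 comparison (11.1%). In RNA, separation was seen for 4 genes above and 3 below in the HrasG12V comparison (26.1% of all genes), for 2 above and 7 below in the shEif2b5 comparison (28.6%), and for 0 above and 2 below in the combined comparison (16%). The RNA medians were 0.09, −0.19 and −0.11 in that order, against 0.01, −0.01 and −0.00 over all genes.

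**Figure D1:**
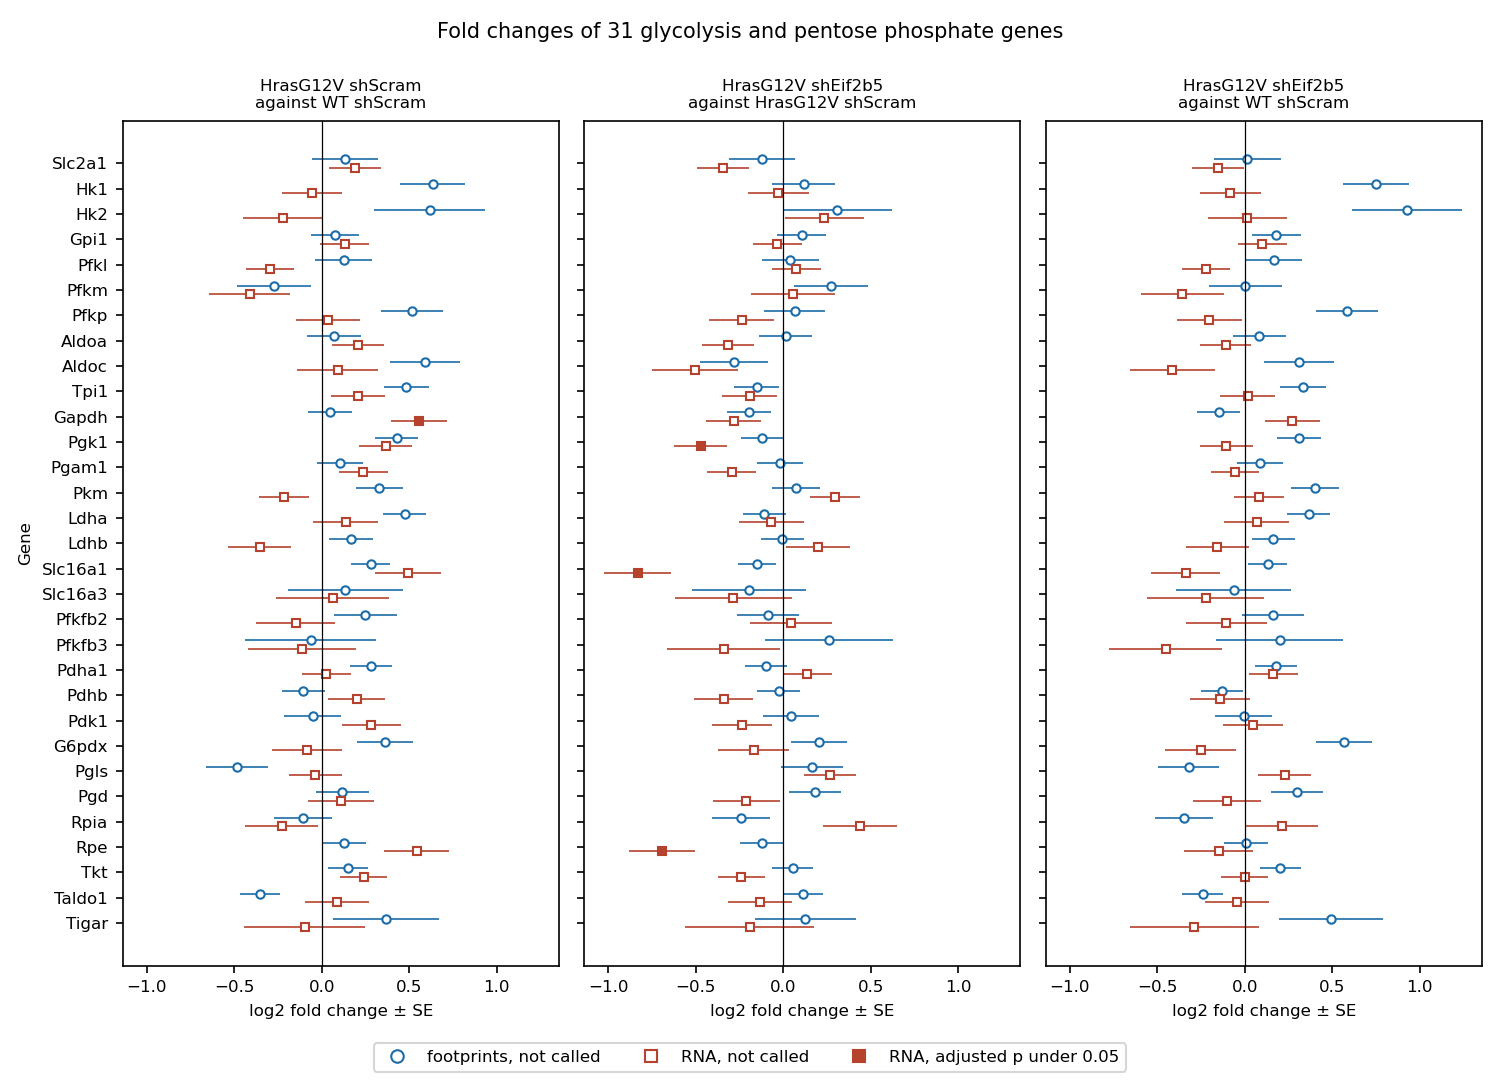
Log2 fold changes with their standard errors for the 31 measured genes in 3 comparisons, circles for footprints and squares for RNA (3 libraries per group). Filled squares mark the 4 calls: Gapdh at 0.56 in the left panel, and Pgk1, Slc16a1 and Rpe at −0.47, −0.83 and −0.69 in the middle panel; most footprint circles of the left and right panels lie above 0.

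For the 4 called genes, the bases just upstream of each start site are shown, from 250 bases before the start to 1 base before it. They were taken from RefSeq (GRCm38.p6, the mm10 build). Capitals mark the MYC E-box CACGTG and the HIF core letters ACGTG and GCGTG, read on both strands, so that CACGT and CACGC are the same letters on the other strand. CACGTG contains ACGTG on each strand. The Gapdh window is chr6:125165774-125166023 on the minus strand, that of Pgk1 chrX:106186850-106187099 on the plus strand, that of Slc16a1 chr3:104638414-104638663 on the plus strand and that of Rpe chr1:66700581-66700830 on the plus strand.
Gapdh: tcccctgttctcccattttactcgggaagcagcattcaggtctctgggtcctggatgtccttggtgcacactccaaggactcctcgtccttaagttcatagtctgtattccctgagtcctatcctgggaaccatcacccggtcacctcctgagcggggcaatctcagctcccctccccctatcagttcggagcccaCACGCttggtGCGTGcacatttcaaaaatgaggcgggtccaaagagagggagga
Pgk1: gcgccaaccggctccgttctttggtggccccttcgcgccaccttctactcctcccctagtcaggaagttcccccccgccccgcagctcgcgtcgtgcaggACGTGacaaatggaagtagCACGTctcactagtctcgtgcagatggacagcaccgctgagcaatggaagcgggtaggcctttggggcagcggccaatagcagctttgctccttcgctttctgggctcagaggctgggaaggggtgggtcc
Slc16a1: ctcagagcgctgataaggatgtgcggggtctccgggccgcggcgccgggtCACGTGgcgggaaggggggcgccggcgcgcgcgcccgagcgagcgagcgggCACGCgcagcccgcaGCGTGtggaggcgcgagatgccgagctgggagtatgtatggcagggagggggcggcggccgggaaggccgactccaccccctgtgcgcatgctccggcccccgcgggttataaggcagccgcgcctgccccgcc
Rpe: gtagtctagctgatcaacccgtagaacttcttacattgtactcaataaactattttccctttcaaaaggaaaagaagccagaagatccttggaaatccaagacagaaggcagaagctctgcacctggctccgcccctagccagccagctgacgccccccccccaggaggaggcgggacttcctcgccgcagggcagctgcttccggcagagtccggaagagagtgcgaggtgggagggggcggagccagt

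Gapdh held GCGTG 2 times and Pgk1 ACGTG 2 times. Slc16a1 held 1 CACGTG and 2 GCGTG, with the CACGTG also counted as ACGTG on both strands. Rpe, which fell with Slc16a1 and Pgk1, held none of these letters in its window. Over the 48 windows of all 32 genes, 10.4% held CACGTG, 35.4% ACGTG and 58.3% GCGTG, where 6.02%, 16.6% and 28.2% of the 32851 mouse promoter windows of this length did. Each of these sequences contains the letters CG, and the mouse promoter windows were not matched to those of the list for GC content. The part of base composition in the higher shares was not tested. Windows of 1 gene can overlap, and a match says nothing about binding in these cells.

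Glucose enters keratinocytes largely through the carrier encoded by Slc2a1 (ENSMUSG00000028645.11; chromosome 4, 119108711 to 119137983, plus strand). Its RNA stood at 288, 313 and 261 CPM (WT shScram), 297, 399 and 288 CPM (HrasG12V shScram) and 255, 262 and 256 CPM (HrasG12V shEif2b5). The 3 HrasG12V shEif2b5 libraries lay close together and below all 3 of HrasG12V shScram, of which replicate 2 was the highest. The log2 difference between these conditions was −0.34 (SE 0.15), with p 0.0342 before and 0.13 after edgeR's adjustment, the smallest among RNAs that were not called there. Offsets for coding GC content and length gave −0.49 (adjusted p 0.0329). Slc2a1 footprints stood at 489.7, 659 and 431 CPM (WT shScram), 479, 756 and 502 CPM (HrasG12V shScram) and 474, 522 and 601 CPM (HrasG12V shEif2b5). The footprint groups overlapped in every comparison, and the range within WT shScram exceeded every difference between group means.

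Hexokinases trap glucose as glucose 6-phosphate. Neither of their genes was called in the main edgeR fit, with all libraries and conditions, the filter on low counts and no replicate block. Both had higher mean footprint levels in the HrasG12V groups than in WT shScram. Hk1, the broadly expressed form, had footprints of 50.8, 76.2 and 60.9 CPM (WT shScram), 93, 101 and 98.8 CPM (HrasG12V shScram) and 74.2, 132 and 111 CPM (HrasG12V shEif2b5). All HrasG12V shScram libraries exceeded all WT shScram libraries, while HrasG12V shEif2b5 replicate 1 fell among the WT values. The log2 difference from WT shScram was 0.63 (SE 0.19, adjusted p 0.125) for HrasG12V shScram and 0.75 (SE 0.19, 95% interval 0.35 to 1.15, adjusted p 0.0746) for HrasG12V shEif2b5, and neither passed. Other settings that kept all libraries of the groups called Hk1 footprints. In the combined comparison these were DESeq2 (adjusted p 0.0125), edgeR with no filter on low counts (0.0409) and edgeR with a replicate block (0.0109). In the HrasG12V comparison they were edgeR fits with a replicate block (0.0187) and of the 2 conditions alone (0.0328). Hk1 RNA stood at 84.2, 115 and 72.2 CPM (WT shScram), 94.5, 92.2 and 73.2 CPM (HrasG12V shScram) and 85.5, 83.3 and 85.5 CPM (HrasG12V shEif2b5), with overlapping groups. Hk2, the form that growth signals are known to induce, had footprint levels of 128 ± 25.7, 196 ± 46.4 and 243 ± 99.5 CPM (mean ± SD, n = 3) in the order WT shScram, HrasG12V shScram, HrasG12V shEif2b5. Both HrasG12V groups lay above all WT shScram libraries, with log2 differences of 0.62 (SE 0.32) and 0.93 (SE 0.32), adjusted p 0.441 and 0.248. Hk2 RNA was 249.5 ± 40.4, 215 ± 71 and 252 ± 55 CPM in the same order. Gpi1, the isomerase that makes fructose 6-phosphate, had log2 differences from −0.03 to 0.18 in its 6 tests of footprints and RNA, none of which passed.

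HrasG12V shEif2b5 footprint replicate 1 was the library that stood apart. Leaving it out changed the count of 0 footprint calls in the combined comparison, as did other settings given below. Without this library, 5 footprint genes were called where 2.72% of 11606 genes were (316 genes). They were Hk1 (log2 difference 0.95, adjusted p 0.00184), the glucose 6-phosphate dehydrogenase gene G6pdx (0.74, 0.0098), Pfkp (0.77, 0.01), Ldha (0.49, 0.0341) and Hk2 (1.15, 0.0494). Hk2 and Pfkp are singled out here after their values were seen. The 2 libraries that remain are those with the high spinous marker sums, and the part of this in the 5 calls was not tested.

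Phosphofructokinase is the committed step of glycolysis, and none of its 3 subunit genes was called in the main edgeR fit. With a replicate block, edgeR called Pfkp footprints in the HrasG12V comparison (adjusted p 0.0362) and the combined comparison (0.027). Pfkl, the liver type, had the most RNA per coding length, 159 CPM per kb in WT shScram against 26.4 for Pfkp and 11.2 for Pfkm. Pfkl RNA was 372 ± 45.9, 303 ± 14 and 319 ± 17.8 CPM in the order WT shScram, HrasG12V shScram, HrasG12V shEif2b5, lower in all 3 HrasG12V shScram libraries than in WT shScram (log2 −0.30, SE 0.14, adjusted p 0.188). Its footprints were 210.0 ± 45.2, 229 ± 31.8 and 236 ± 41.3 CPM. Pfkp, the platelet type, had footprints of 66.2 ± 11.7, 95 ± 12.2 and 99.5 ± 23.9 CPM, with a log2 difference of 0.52 (SE 0.18, adjusted p 0.183) in HrasG12V shScram against WT shScram and no overlap between the groups. Pfkp RNA was 62.1 ± 16.1, 62.9 ± 3.37 and 53.3 ± 4.4 CPM. Pfkm, the muscle type, was low in both, at 23.9 ± 2.92, 19.9 ± 5.45 and 24 ± 4.91 CPM in footprints and 26.1 ± 0.586, 19.6 ± 1.18 and 20.6 ± 7.26 CPM in RNA.

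Fructose 2,6-bisphosphate is the strongest known activator of phosphofructokinase. Pfkfb2 and Pfkfb3 make it, and Tigar removes it, which turns glucose 6-phosphate towards the pentose phosphate pathway. Tigar had the lowest RNA level per coding length of the measured genes. Its RNA stood at 6.07, 6.22 and 8.32 CPM (WT shScram), 8.4, 6.11 and 4.96 CPM (HrasG12V shScram) and 8.14, 3.55 and 5.64 CPM (HrasG12V shEif2b5), from 10 to 46 counts per library, and the groups overlapped. Tigar footprints stood at 6.14, 10.7 and 13 CPM (WT shScram), 15.6, 10.7 and 12.3 CPM (HrasG12V shScram) and 14.5, 8.48 and 19.4 CPM (HrasG12V shEif2b5). The footprint log2 difference of HrasG12V shEif2b5 from WT shScram was 0.49 with a 95% interval of −0.14 to 1.13. Pfkfb2 had 18.1 ± 1.63, 21.4 ± 1.96 and 20.2 ± 2.81 CPM in footprints and 16.8 ± 1.84, 15.5 ± 2.96 and 15.7 ± 2.76 CPM in RNA, and Pfkfb3 23.8 ± 4.88, 23.2 ± 11.2 and 27.5 ± 10.5 CPM in footprints and 26.1 ± 6, 24.6 ± 10.6 and 19.1 ± 6.12 CPM in RNA. None of the 3 genes was called, and Pfkfb3 varied by up to 11.2 CPM (SD) within a group.

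Aldolase splits the hexose, and the remaining steps carry triose phosphates to pyruvate. Aldoa, the main form, had 608 ± 111, 639 ± 66.8 and 645 ± 123 CPM in footprints and 584 ± 35.2, 673 ± 97.6 and 541 ± 40.1 CPM in RNA. Its RNA was lower in HrasG12V shEif2b5 than in HrasG12V shScram, without overlap (log2 −0.32, SE 0.15, adjusted p 0.16). Aldoc footprints were 40.5 ± 7.44, 61.4 ± 9.62 and 50.5 ± 14.5 CPM, higher in all HrasG12V shScram libraries than in WT shScram (log2 0.59, SE 0.20, adjusted p 0.176). Tpi1, triose phosphate isomerase, had 787 ± 109, 1102 ± 106 and 992 ± 115 CPM in footprints, again separated between HrasG12V shScram and WT shScram (log2 0.48, SE 0.13, adjusted p 0.0713), and 425 ± 54.5, 491 ± 67.8 and 429 ± 46.6 CPM in RNA. Pgam1, the mutase that follows Pgk1, had 533 ± 60.7, 574 ± 67.1 and 566 ± 75.3 CPM in footprints and 309 ± 35.5, 364 ± 27.9 and 297 ± 18.4 CPM in RNA and was not called.

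Gapdh (ENSMUSG00000057666.18; chromosome 6, 125161715 to 125166467, minus strand) is widely used as a reference gene. Its RNA stood at 175, 174 and 211 CPM (WT shScram), 296, 260.4 and 267 CPM (HrasG12V shScram) and 281, 205 and 191 CPM (HrasG12V shEif2b5). All 3 HrasG12V shScram values lay above all 3 WT shScram values, while HrasG12V shEif2b5 spanned both groups with replicate 1 among the HrasG12V shScram values. The log2 fold change of HrasG12V shScram against WT shScram was 0.56 (SE 0.16, adjusted p 0.0409). Gapdh footprints stood at 444, 346 and 330.1 CPM (WT shScram), 406, 364 and 387 CPM (HrasG12V shScram) and 343, 347 and 319.9 CPM (HrasG12V shEif2b5), with overlapping groups (log2 0.05, SE 0.12, adjusted p 0.92). The footprint groups of HrasG12V shEif2b5 and HrasG12V shScram did not overlap, and the log2 difference of −0.20 had the smallest unadjusted p of that comparison (0.13, adjusted p 0.994). The RNA call held in 1 of 6 fits without 1 library. The adjusted p was 0.156, 0.157 and 0.0519 without WT shScram replicate 1, 2 or 3, 0.143 and 0.0803 without HrasG12V shScram replicate 1 or 3, and 0.012 without replicate 2.

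Pgk1 (ENSMUSG00000062070.12; chromosome X, 106187100 to 106203699, plus strand) makes the first ATP of glycolysis. Its RNA stood at 426, 416 and 317 CPM (WT shScram), 515, 476 and 499 CPM (HrasG12V shScram) and 334, 405 and 336 CPM (HrasG12V shEif2b5). The HrasG12V shScram libraries were the 3 highest of the 9. RNA in HrasG12V shEif2b5 fell by 0.47 on the log2 scale against HrasG12V shScram (SE 0.15, adjusted p 0.0479), and the difference of HrasG12V shScram from WT shScram was 0.36 (adjusted p 0.138). Pgk1 footprints stood at 869, 921 and 881 CPM (WT shScram), 1259.9, 1278 and 1059 CPM (HrasG12V shScram) and 936, 1165 and 1209.8 CPM (HrasG12V shEif2b5). Every footprint library of both HrasG12V groups exceeded all 3 of WT shScram, with log2 differences of 0.43 (SE 0.12, adjusted p 0.0985) and 0.31 (SE 0.12, adjusted p 0.251). The footprint levels of HrasG12V shEif2b5 and HrasG12V shScram overlapped (log2 −0.12, SE 0.12, adjusted p 0.994). The RNA call of the shEif2b5 comparison held in 1 of 6 fits without 1 library. Its adjusted p was 0.156, 0.0566 and 0.181 without HrasG12V shEif2b5 replicate 1, 2 or 3, and 0.133 and 0.105 without HrasG12V shScram replicate 1 or 3.

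Pkm, pyruvate kinase of most tissues, makes pyruvate and the last ATP of glycolysis. Its footprints stood at 1189, 1644 and 1558 CPM (WT shScram), 1692, 1870.5 and 1953 CPM (HrasG12V shScram) and 1662, 2104 and 2037 CPM (HrasG12V shEif2b5). All 6 HrasG12V libraries exceeded all WT shScram libraries (log2 0.33 and 0.40, SE 0.14 each, adjusted p 0.268 and 0.171). Pkm RNA stood at 1016, 1092 and 986 CPM (WT shScram), 890.1, 948 and 828 CPM (HrasG12V shScram) and 1130.4, 1049 and 1095 CPM (HrasG12V shEif2b5). The 3 RNA values of HrasG12V shScram were the lowest of the 9, and this difference from WT shScram did not pass (log2 −0.21, SE 0.14, adjusted p 0.356). Counts per gene do not separate the M1 and M2 splice forms.

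**Figure D2:**
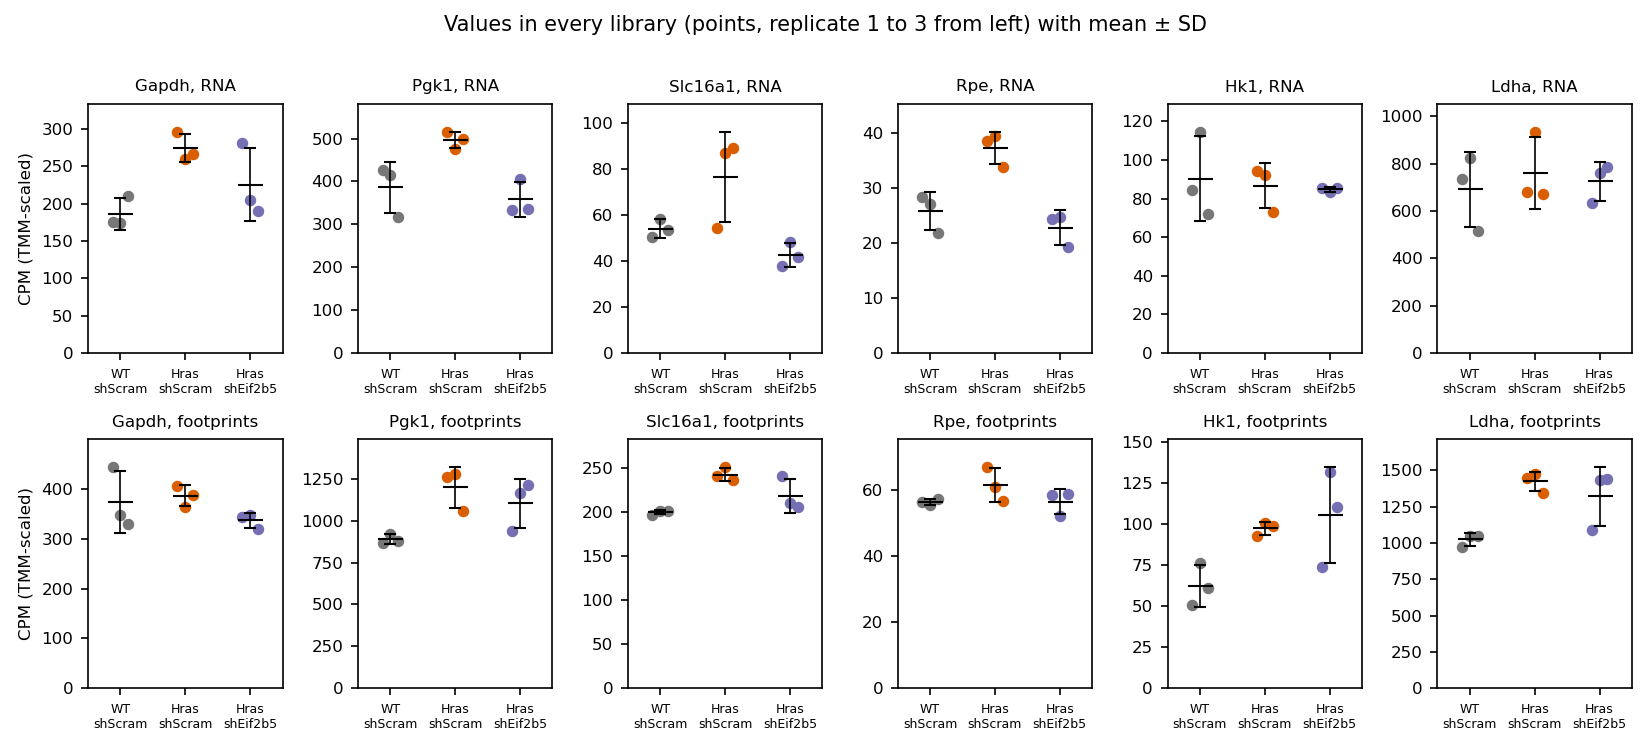
TMM-scaled CPM of 6 genes in every library, RNA above and footprints below, with points for replicates 1 to 3 and bars for mean ± SD (n = 3); the vertical axes start at 0 and differ between panels. Mean RNA of Gapdh, Pgk1, Slc16a1 and Rpe is highest in HrasG12V shScram, and mean footprints of Hk1 and Ldha are lowest in WT shScram.

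Lactate dehydrogenase and the monocarboxylate carriers follow pyruvate kinase. Ldha footprints stood at 975, 1049 and 1052 CPM (WT shScram), 1449, 1476 and 1347 CPM (HrasG12V shScram) and 1087, 1434 and 1443 CPM (HrasG12V shEif2b5). The 3 WT shScram values were the lowest of the 9, and HrasG12V shScram exceeded them by 0.47 on the log2 scale (SE 0.12, 95% interval 0.22 to 0.73). The adjusted p of 0.0557 was the smallest of all footprint tests of the list in the main edgeR fit. Ldha footprints were called in this comparison by DESeq2 (adjusted p 0.0132) and by edgeR with no filter on low counts (0.0301). The difference of HrasG12V shEif2b5 from WT shScram was 0.37 (SE 0.12, adjusted p 0.171). Ldha RNA stood at 735, 824 and 516 CPM (WT shScram), 678, 934 and 669 CPM (HrasG12V shScram) and 631, 759 and 784 CPM (HrasG12V shEif2b5), with overlap in every comparison. Ldhb, the form that prefers lactate as substrate, had 138 ± 22.3, 155 ± 3.48 and 155 ± 6.24 CPM in footprints and 77 ± 8.19, 61.2 ± 16.3 and 68.7 ± 7.77 CPM in RNA.

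Slc16a1 (ENSMUSG00000032902.1; chromosome 3, 104638668 to 104658462, plus strand) encodes a carrier of lactate and pyruvate in both directions and had the smallest adjusted p of the list. Its RNA stood at 50.2, 58.3 and 53.3 CPM (WT shScram), 54, 86.6 and 88.9 CPM (HrasG12V shScram) and 37.8, 48.2 and 41.8 CPM (HrasG12V shEif2b5). All 3 HrasG12V shEif2b5 values lay below all other 6, and HrasG12V shScram replicate 1 lay among the WT shScram values while replicates 2 and 3 were the highest. RNA in HrasG12V shEif2b5 fell by 0.83 on the log2 scale against HrasG12V shScram (SE 0.19, 95% interval −1.24 to −0.43, adjusted p 0.0131). Against WT shScram the differences were 0.49 (SE 0.19, adjusted p 0.11) for HrasG12V shScram and −0.34 (SE 0.19, adjusted p 0.786) for HrasG12V shEif2b5. The last of these had the smallest p of its comparison. Slc16a1 footprints stood at 197, 202 and 201 CPM (WT shScram), 241, 252 and 236 CPM (HrasG12V shScram) and 241, 210.1 and 206 CPM (HrasG12V shEif2b5). Footprints of HrasG12V shEif2b5 overlapped those of HrasG12V shScram (log2 −0.15, SE 0.11, adjusted p 0.994), and both HrasG12V groups lay above WT shScram. Without 1 library the RNA call was lost without HrasG12V shEif2b5 replicate 1 or 3 (adjusted p 0.0665 and 0.0685) and without HrasG12V shScram replicate 3 (0.062). Slc16a3, the carrier known for lactate export from glycolytic cells, had 25.5 ± 6.72, 28.4 ± 13.5 and 24.5 ± 6.09 CPM in footprints and 23.5 ± 4.24, 26.2 ± 16.1 and 20 ± 2.65 CPM in RNA and was not called with all libraries.

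Pyruvate dehydrogenase sends pyruvate to the mitochondrial citrate cycle, and Pdk1 encodes a kinase that switches it off. Pdha1, its catalytic alpha subunit, had footprints of 153 ± 16.8, 186 ± 9.7 and 174 ± 15.3 CPM, higher in HrasG12V shScram than in WT shScram without overlap (log2 0.28, SE 0.12, adjusted p 0.29). Pdhb had 125 ± 9.84, 116 ± 10.6 and 114 ± 9.84 CPM and Pdk1 62.7 ± 11.1, 60.6 ± 10.9 and 62.4 ± 8.75 CPM. RNA of the 3 genes was 131 ± 17.1, 133 ± 9.56 and 147 ± 4.82 CPM for Pdha1, 57.9 ± 8.46, 66.2 ± 10.7 and 52.8 ± 3.98 for Pdhb and 60.2 ± 7.86, 72.3 ± 10.1 and 61.6 ± 10.2 for Pdk1. None of their 18 footprint and RNA tests passed.

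G6pdx, glucose 6-phosphate dehydrogenase, commits glucose to the oxidative pentose phosphate arm and makes its first NADPH. G6pdx footprints stood at 94.3, 123 and 92.2 CPM (WT shScram), 118, 143 and 139 CPM (HrasG12V shScram) and 115, 162 and 182 CPM (HrasG12V shEif2b5). WT shScram replicate 2 overlapped both HrasG12V groups, and HrasG12V shEif2b5 replicates 2 and 3 were the highest of the 9. The log2 difference of HrasG12V shEif2b5 from WT shScram was 0.57 (SE 0.16, 95% interval 0.23 to 0.91, adjusted p 0.106). G6pdx RNA stood at 59.1, 78.5 and 84.4 CPM (WT shScram), 83.6, 47.2 and 76 CPM (HrasG12V shScram) and 74.4, 56.4 and 56.4 CPM (HrasG12V shEif2b5), with overlap in every comparison. Pgls, the lactonase that follows, had footprints of 71.2 ± 20.5, 51.1 ± 3.27 and 57.3 ± 9.58 CPM and was one of 7 genes below WT shScram in HrasG12V shScram (log2 −0.48, SE 0.18, adjusted p 0.211). Pgd, which makes the other NADPH, had 148 ± 30.3, 160.4 ± 8.94 and 182 ± 31.8 CPM in footprints. RNA was 116 ± 14.9, 113 ± 10 and 136 ± 18 CPM for Pgls and 84.2 ± 18.6, 91.3 ± 22.4 and 78.1 ± 5.94 CPM for Pgd.

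Among the 4 genes of the non-oxidative arm only Rpe was called. Rpe (ENSMUSG00000026005.15; chromosome 1, 66700831 to 66719805, plus strand) interconverts ribulose and xylulose 5-phosphate. Rpe RNA stood at 28.3, 27.2 and 21.9 CPM (WT shScram), 38.6, 39.4 and 33.9 CPM (HrasG12V shScram) and 24.4, 24.8 and 19.3 CPM (HrasG12V shEif2b5). The 3 HrasG12V shScram values were the highest of the 9, and the other groups overlapped. RNA in HrasG12V shEif2b5 fell by 0.69 on the log2 scale against HrasG12V shScram (SE 0.19, adjusted p 0.0256). The difference of HrasG12V shScram from WT shScram, 0.54 (SE 0.18, adjusted p 0.0769), had the smallest p of the uncalled genes there. Rpe footprints stood at 56.3, 55.5 and 57.3 CPM (WT shScram), 67.1, 61.2 and 56.7 CPM (HrasG12V shScram) and 58.7, 52.2 and 59 CPM (HrasG12V shEif2b5), and the footprint groups of HrasG12V shEif2b5 and HrasG12V shScram overlapped. The RNA call was lost without HrasG12V shEif2b5 replicate 1 or 3 (adjusted p 0.0657 and 0.127) or HrasG12V shScram replicate 1 or 3 (0.0854 and 0.0508).

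Rpia, the isomerase that releases ribose 5-phosphate, had a higher mean RNA level in HrasG12V shEif2b5 than in HrasG12V shScram, with RNA of 26.6 ± 3.92, 22.7 ± 3.23 and 30.6 ± 6.65 CPM (log2 0.44, SE 0.21, adjusted p 0.168 in the shEif2b5 comparison) and footprints of 31.6 ± 6.52, 29.3 ± 1.07 and 24.8 ± 1.99 CPM. Tkt and Taldo1, transketolase and transaldolase, return carbon to glycolysis. Tkt had 377 ± 28.6, 418 ± 46 and 434 ± 13.6 CPM in footprints and 297 ± 5.78, 350.1 ± 28.7 and 297 ± 27.9 CPM in RNA. Taldo1 footprints were 253 ± 29.3, 198 ± 7.5 and 214 ± 10.5 CPM, below WT shScram in all 6 HrasG12V libraries (log2 −0.35 and −0.24, adjusted p 0.156 and 0.348), and its RNA was 133 ± 11.7, 141 ± 28.1 and 129 ± 34.8 CPM.

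The 3 RNA calls of the shEif2b5 comparison were lost when HrasG12V shScram RNA replicates 1 and 3 were left out together. This setting was chosen after seeing the data and leaves 1 library in that group, so the losses cannot be read as a result about these genes. Slc16a1 stood at −1.02, Rpe at −0.77 and Pgk1 at −0.41 on the log2 scale, and Gapdh against WT shScram at 0.48. Offsets for coding GC content and length gave −0.62 (adjusted p 0.059), −0.55 (0.081) and −0.32 (0.171) for Slc16a1, Rpe and Pgk1. Pgk1 also lost its call with DESeq2 size factors (adjusted p 0.0508), without the 20 most abundant genes (0.0506) and in a fit of the 2 conditions alone (0.0717). Gapdh lost its call in the last of these (0.0582). Leaving out the 3 deepest RNA libraries, also chosen after seeing the data, again leaves 1 HrasG12V shScram library. Gapdh, Rpe and Pgk1 lost their calls there and Slc16a1 kept its call. Gapdh then stood at 0.58 in the HrasG12V comparison. In the shEif2b5 comparison Rpe stood at −0.77, Pgk1 at −0.41 and Slc16a3 at −1.16.

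Ribosome occupancy per mRNA was taken as footprint CPM over RNA CPM, a scale on which the median gene lies near 1. Genes of the list lay above that median for 24, 24 and 27 of 31 in the order WT shScram, HrasG12V shScram, HrasG12V shEif2b5, with a median log2 ratio of 0.48, 0.51 and 0.76. Slc16a1 had the highest ratio in each condition, 3.72, 3.25 and 5.15, followed in WT shScram by Pgk1 (2.32) and Rpe (2.2). At the low end of WT shScram stood Hk2 (0.508), Pfkl (0.559), Pgls (0.601) and Hk1 (0.697). The ratio carries no standard of its own, so it ranks genes within a condition and is not an absolute rate.

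Whether the ratio changed between conditions was tested by the interaction of condition and library kind over all 18 libraries. EdgeR called 0 of 31 genes in each comparison, where the background over 10793 genes was 1.17% in the HrasG12V comparison, 2.11% in the shEif2b5 comparison and 0% in the combined comparison. DESeq2 and limma voom called 0 in each as well, and at an unadjusted p under 0.05 there were 4, 3 and 8 of 31, where 15.8%, 19.1% and 5.87% of all genes passed. The smallest p of the first comparison was that of Pkm, at 0.55 on the log2 scale (SE 0.20, 95% interval 0.14 to 0.95, adjusted p 0.169). Slc16a1 led the shEif2b5 comparison at 0.67 (SE 0.22, 95% interval 0.23 to 1.12, adjusted p 0.0883), where its RNA was lower and its footprints overlapped. Hk1 led the combined comparison at 0.83 (SE 0.26, adjusted p 0.732). By sign, 26 of 31 ratios were higher in HrasG12V shEif2b5 than in WT shScram, with a median log2 difference of 0.29 against 0.00 over all genes. The RNA call for Gapdh and the absence of a footprint call do not by themselves show a change in the ratio, whose test gave −0.51 (adjusted p 0.222).

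**Figure D3:**
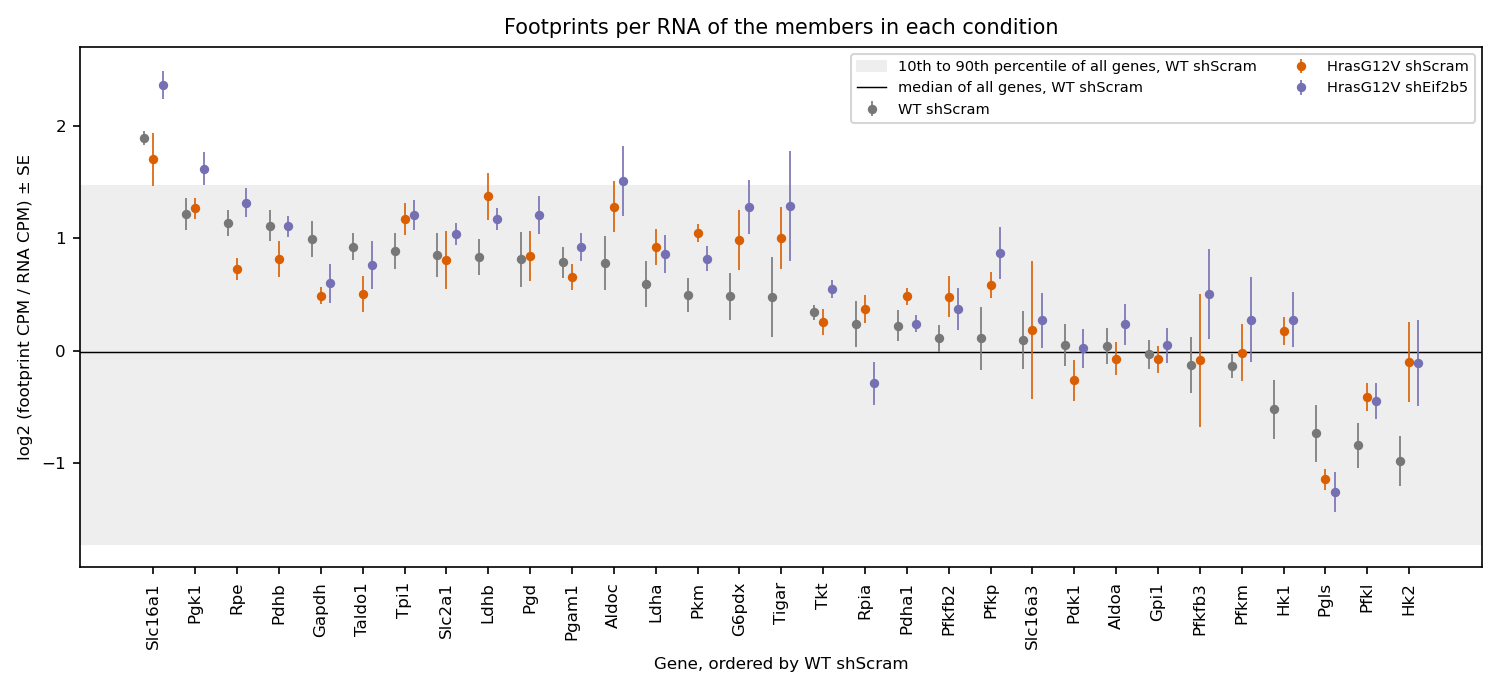
Log2 ratio of footprint CPM to RNA CPM with its standard error for 31 genes in the 3 conditions (3 footprint and 3 RNA libraries each), ordered by WT shScram; the line is the median of all genes and the band their 10th to 90th percentile in WT shScram. Slc16a1 lies above the band in every condition, and 24 of 31 genes lie above the median in WT shScram.

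Isozyme makeup was read from CPM per kb of the longest coding sequence and is given as a description, with no test. Hk2 made up 74.2% ± 2.46, 71% ± 4.87 and 74.9% ± 4.21 of hexokinase RNA (SD, n = 3) in the order WT shScram, HrasG12V shScram, HrasG12V shEif2b5, and 67.7% ± 2.37, 67% ± 4.27 and 69.4% ± 7.21 of hexokinase footprints. Ldha made up 87.3% ± 1.41, 89.4% ± 0.615 and 88.6% ± 1.79 of lactate dehydrogenase footprints and Aldoa 92.8% ± 1.18, 90.1% ± 0.967 and 91.8% ± 1.11 of aldolase footprints. Pfkl held 81% ± 1.18, 78.6% ± 1.04 and 81.3% ± 1.92 of phosphofructokinase RNA but 69.9% ± 3.69, 66.7% ± 0.751 and 65.9% ± 1.88 of the footprints, with Pfkp at 13.3% ± 1.97, 16.3% ± 1.03 and 13.5% ± 1.06 of RNA and 22.1% ± 2.61, 27.6% ± 1.69 and 27.4% ± 1.65 of footprints. Slc16a1 held 68.7% ± 3.08, 74.8% ± 8.53 and 66.9% ± 4.34 of the RNA of the 2 carriers and 88.3% ± 2.65, 89.3% ± 4.16 and 89.4% ± 3.08 of their footprints. Pfkfb2 and Pfkfb3 were near parity, with Pfkfb2 at 45.2% ± 7.29, 51.6% ± 13.9 and 45.1% ± 8.35 of footprints and a wide spread within groups. Pdha1 made up 53% ± 4.36, 59.6% ± 3.4 and 58.4% ± 1.91 of the pair Pdha1 and Pdhb in footprints.

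**Figure D4:**
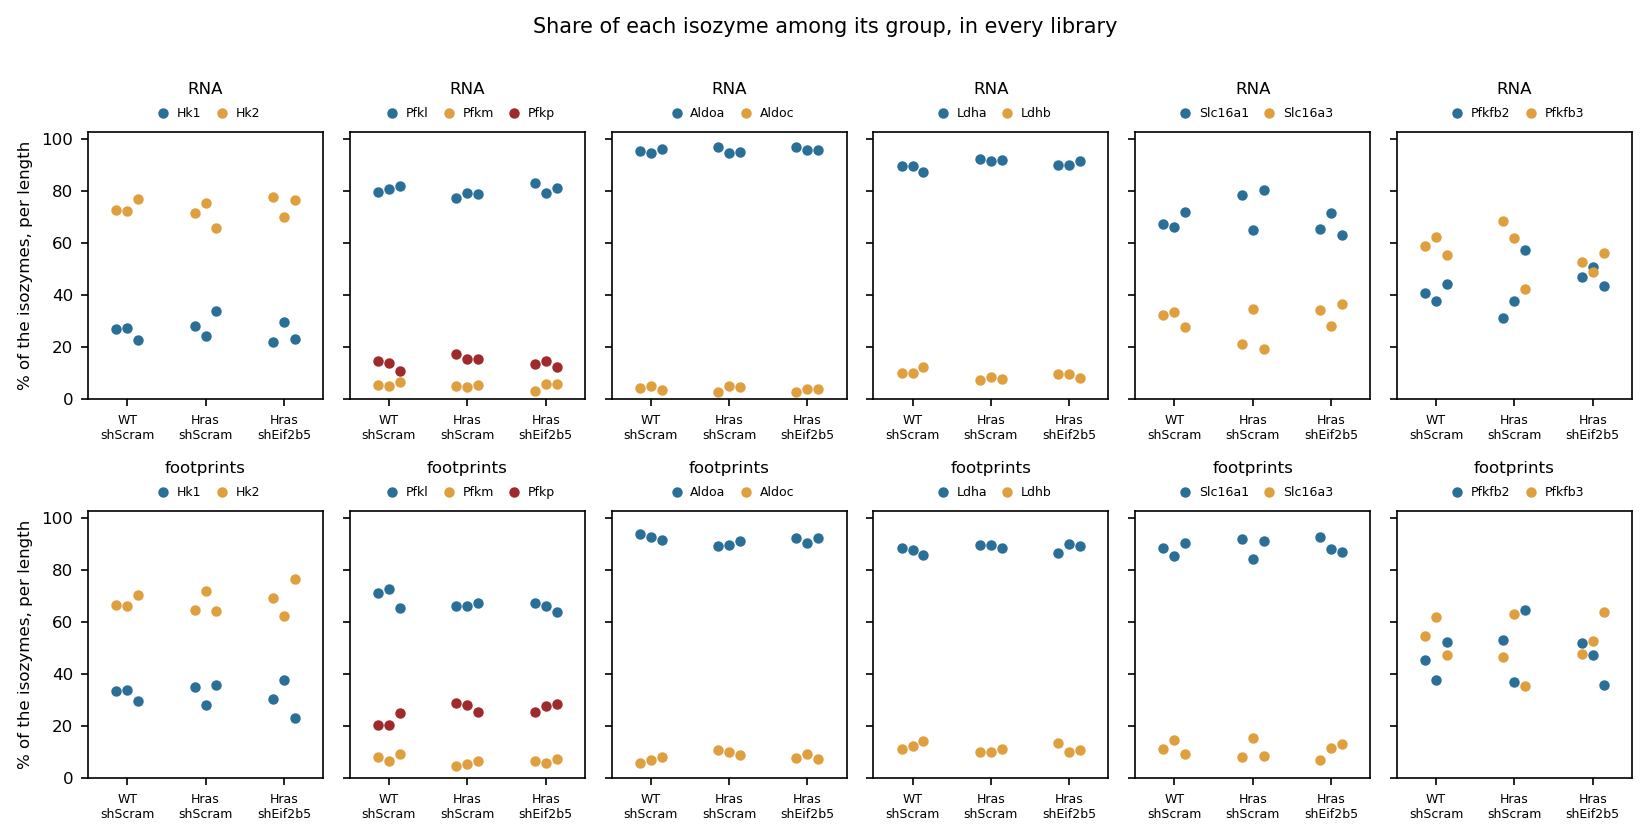
Share of each isozyme in its group, in percent of CPM per kb of coding sequence, for every library (3 points per condition, replicates 1 to 3 from left), RNA above and footprints below. Hk2, Pfkl, Aldoa, Ldha and Slc16a1 hold the larger share in every library, and Pfkfb2 and Pfkfb3 cross.

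Per coding length, the list spanned a wide range in WT shScram. Footprints ran from 947 CPM per kb for Ldha, 919 for Pkm and 878 for Tpi1 down to 12.3 for Tigar, 11.6 for Pfkfb2 and 10.2 for Pfkm. RNA ran from 647 CPM per kb for Pkm to 8.51 for Tigar. All 32 genes together took 0.926% ± 0.0599 of footprint counts in WT shScram, 1.06% ± 0.0744 in HrasG12V shScram and 1.00% ± 0.0756 in HrasG12V shEif2b5 (SD, n = 3), and 0.611% ± 0.0370, 0.685% ± 0.0322 and 0.609% ± 0.0119 of RNA counts.

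Many glycolytic genes have processed pseudogenes that share their sequence, so their counts depend on how reads with several matches were treated, which is not given in the sources used here. Of all 30-base stretches in the longest coding sequence, 100% of Pgk1 and Pgam1, 94.3% of Gapdh, 89.9% of Eno1 and 79.8% of Pkm also occur in transcripts of other annotated genes, for Gapdh in 340 of them. The share was 58.8% for Ldha, 58.1% for Gpi1, 43% for Aldoa and 24.3% for G6pdx, and 0% for Slc16a1, Rpe, Hk1, Hk2 and the 3 phosphofructokinase genes. The levels of Gapdh and Pgk1, called in RNA, are therefore uncertain, while Slc16a1 and Rpe share no such stretch. Eno1 (ENSMUSG00000063524.13; chromosome 4, 150236721 to 150248879, plus strand), an enolase that most tissues use heavily, was listed at 0 throughout. Its near-identical copy Eno1b had 0.669 CPM in footprints and 0 counts in RNA of HrasG12V shScram replicate 1, against 7.99 to 21 CPM in the other 16 libraries. No level of Eno1 was therefore compared between conditions, and Eno1b belongs to the other genes of these pathways described next.

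Of 64 other genes of these pathways, 42 were tested in footprints and 39 in RNA. EdgeR called 0 of 42 footprint genes in each comparison (7, 4 and 8 at an unadjusted p under 0.05; 0, 0 and 2 by DESeq2 and 0, 0 and 0 by limma voom), with medians of −0.06, 0.03 and −0.08. In RNA, 3 of 39 rose in the HrasG12V comparison: the gluconeogenic phosphatase gene Fbp1 (1.73, adjusted p 0.01), the mitochondrial pyruvate carrier gene Mpc1 (1.14, adjusted p 0.0219) and the pyruvate dehydrogenase kinase gene Pdk3 (0.76, adjusted p 0.0344). Fbp1 was low in both groups, at 9.1 ± 1.18 CPM in HrasG12V shScram against 2.77 ± 0.445 CPM in WT shScram. In the shEif2b5 comparison, 5 of 39 fell and 1 rose. Pdk3 (−0.96, adjusted p 0.011), Mpc1 (−1.20, adjusted p 0.0152) and Dld, a shared subunit of pyruvate dehydrogenase (−0.67, adjusted p 0.0167), were lower, as were Slc16a7 and Prps1, and the mitochondrial PEP carboxykinase gene Pck2 was higher (0.67, adjusted p 0.0188). The called shares of 7.69% and 15.4% stand beside 7.7% and 13% of all genes. The medians of the 39 were 0.29 and −0.28, and edgeR called 0 of 39 in the combined comparison (3 at an unadjusted p under 0.05, 0 by DESeq2 and 0 by limma voom). Only Pdk3 was called for translation efficiency, lower in HrasG12V shScram than in WT shScram (−0.96, adjusted p 0.0472). It was 1 of 39 (2.56%), beside 1.17% of all genes. Without HrasG12V shScram RNA replicates 1 and 3 none of these calls held. That setting leaves 1 library in the group, so the losses cannot be read as a result about these genes. Each of these calls was also lost in 1 or more edgeR fits without 1 library (largest adjusted p of each 0.0532 to 0.162).

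Of 30 regulators and targets of HIF and MYC outside the pathway, 28 were tested. Myc footprints rose in HrasG12V shScram (0.78, adjusted p 0.0168; 101 ± 22.9 against 58.8 ± 8.75 CPM) and in HrasG12V shEif2b5 (0.68, adjusted p 0.0494) against WT shScram, the 1 of 28 called in each (3.57%, beside 1.7% and 0.97% of all genes). The adjusted p reached 0.118 without HrasG12V shScram footprint replicate 3 and 0.226 without WT shScram footprint replicate 1. In RNA, Hif1a, which encodes the oxygen-regulated HIF subunit, rose in the HrasG12V comparison (0.70, adjusted p 0.0169) and fell in the shEif2b5 comparison (−0.62, adjusted p 0.0213). Higd1a, a hypoxia-induced mitochondrial gene, followed the same course (1.10, adjusted p 0.00568; −1.33, adjusted p 0.0028), as did the cytokine gene Mif (0.77, adjusted p 0.0124; −0.97, adjusted p 0.00362). Arrdc4, which responds to glucose through MondoA, went the other way (−0.61, adjusted p 0.0194; 0.59, adjusted p 0.0169). These 4 of 28 genes (14.3%) were called in each, beside 7.7% and 13% of all genes, and the 2 comparisons share the HrasG12V shScram libraries. Without HrasG12V shScram RNA replicates 1 and 3 none of these RNA calls held, nor did the translation efficiency calls of Mif given next. As 1 library is left in that group, the losses cannot be read as a result about these genes. For translation efficiency, Mif was lower in HrasG12V shScram than in WT shScram (−0.93, adjusted p 0.0459) and higher in HrasG12V shEif2b5 than in HrasG12V shScram (0.98, adjusted p 0.0282). It was the 1 of 28 called in each (3.57%), beside 1.17% and 2.11% of all genes. In edgeR fits without 1 library both calls could be lost (adjusted p up to 0.144 and 0.103).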

How the data were processed

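The deposited values are whole-number read counts per gene over coding sequences in 18 libraries. Bowtie, TopHat2, HTSeq and the mm10 build are named in the submitters' processing notes, without versions. The annotation, the strand setting and the handling of reads with several matches are not given in the sources used here. Libraries of each kind were filtered with filterByExpr (minimum count 10, minimum total 15), scaled by TMM and fitted over all 3 conditions with edgeR 4.0.16 (robust quasi-likelihood, R 4.3.3). Translation efficiency was tested as the condition-by-kind term of a single fit to all 18 libraries. Benjamini-Hochberg adjustment ran over all genes tested in each comparison, and 0.05 was the threshold. Scripts were tested on simulated data. Alternatives were DESeq2 1.42.0, limma voom 3.58.1, other scalings and filters, GC and length offsets, a replicate block, the 2 conditions alone and left-out libraries. CPM are library-size-scaled counts with TMM factors, and coding lengths are the longest CCDS sequence per gene (GENCODE M21, GRCm38).

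The genes and lists were chosen with earlier results of these data known. All 32 genes are named. Values of every library are given for called genes, for the uncalled gene with the smallest p in each of the 9 comparisons, and for Slc2a1, Gapdh, Pkm, Ldha, G6pdx and Tigar. Of the other lists, up to 4 called genes with the smallest p are given with values.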

Additional observations from a re-analysis of the deposited data

How the results depend on the processing

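For footprints in the HrasG12V comparison, where 0 of 31 genes were called, the count was 2 with no filter on low counts (Ldha and Tpi1) and 3 by DESeq2 (Ldha, Pgk1 and Tpi1). It was 1 with GC and length offsets (Tpi1) and 1 with only the 2 conditions compared (Hk1). Without 1 library it was 0 to 3 (3 without WT shScram footprint replicate 3: Ldha, Taldo1 and Tpi1). Footprints in the combined comparison gave 2 with no filter (G6pdx and Hk1), 1 by DESeq2 (Hk1) and 0 to 5 without 1 library. In RNA of the HrasG12V comparison, where Gapdh was called, the count was 0 with only the 2 conditions compared. It was 0 to 2 without 1 library, where Slc16a1 gained a call without HrasG12V shScram replicate 1 and Ldhb without replicate 2. Gapdh stood at 0.48 on the log2 scale without HrasG12V shScram RNA replicates 1 and 3 and at 0.58 without the 3 deepest RNA libraries. In RNA of the shEif2b5 comparison all 3 calls were lost with GC and length offsets, and Slc2a1 was called instead (adjusted p 0.0329). The count there was 0 to 3 without 1 library. Without HrasG12V shScram RNA replicates 1 and 3, Slc16a1, Rpe and Pgk1 stood at −1.02, −0.77 and −0.41 on the log2 scale. Translation efficiency gave 0 to 1 without 1 library in the HrasG12V comparison (Ldhb, without HrasG12V shScram RNA replicate 2) and in the shEif2b5 comparison (Slc16a1, without HrasG12V shScram RNA replicate 1). The settings that leave out 2 or 3 RNA libraries were chosen after seeing the data and leave 1 HrasG12V shScram library, assumed to vary like the other groups. Apart from the fits with fewer libraries, the cause was not tested.

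Deviations of libraries with the same replicate number correlated at −0.18 to 0.34 in footprints and −0.39 to 0.39 in RNA, so the numbers were not taken to pair the samples. Footprint and RNA libraries of 1 condition and number correlated at −0.008 to 0.34 (median 0.15, against −0.05 for different numbers), and a replicate block joining them, chosen after seeing the data, called 0 genes for translation efficiency in each comparison. With a replicate block the counts were 3 for footprints in the HrasG12V comparison (Aldoc, Hk1 and Pfkp), 3 in the combined comparison (G6pdx, Hk1 and Pfkp) and 0 for RNA in the HrasG12V comparison (Gapdh, adjusted p 0.0583). In RNA of the shEif2b5 comparison it was 2, with Pgk1 no longer called (adjusted p 0.0655). Of 2232 single-gene values without 1 library, 17 lost and 12 gained a call, and of 3249 under the 13 other settings, 16 lost and 18 gained one. No called value changed sign.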
